A study of Mus musculus with 4 samples.

Results

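The genes of intraflagellar transport (IFT) and of the BBSome were compared between testes of Kctd19 knockout (ko) mice and Kctd19 heterozygous (het) mice at postnatal day 14. The members were 33 genes chosen by symbol from a list of transport genes that primary cilia and flagella share, out of 55401 rows in each table, and all 33 were found. They comprise 12 IFT-B genes, 6 IFT-A genes, 7 BBSome subunits, 2 BBS chaperonin-like genes, 5 motor genes and the adaptor gene Tulp3. The ko group was Kctd19-/- and the het group Kctd19+/-, with 2 biological replicates each on C57BL/6J, and no treatment. The het controls thus carry 1 mutant allele, and wild-type testes were not analysed here. The labels name testicular cells as the source, and RNA of testes was extracted and its poly(A) fraction sequenced, and the unit is FPKM, a level scaled both for library depth and for the exon length of the gene. Every level below is in FPKM. A ko-to-het ratio is a ratio of group means, and a log2 fold change is ko minus het on the log2(FPKM + 1) scale, which understates the change of low genes. A gene was called when its p from limma, adjusted by the Benjamini-Hochberg method over all 17905 genes tested, was under 0.05.

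IFT moves building blocks and receptors along the microtubules of a cilium or flagellum. Kinesin-2 motors pull trains outward, with IFT-B as the part of the train they engage, and cytoplasmic dynein-2 brings trains back with IFT-A. The BBSome is a coat-like adaptor that rides on the trains and carries membrane proteins, and chaperonin-like BBS proteins help to assemble it. In the mouse testis somatic cells bear primary cilia, spermatids need IFT proteins to build the sperm tail, and at the age sampled the leading germ cells are meiotic spermatocytes.

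Kctd19, the targeted gene, stood at 12.8 and 15.6 FPKM in the ko libraries and at 29.7 and 18.2 FPKM in the het libraries (log2 fold change -0.69, SE 0.25, limma adjusted p = 0.529). The labels used here do not state which exons were deleted, so RNA summed over all exons does not check the genotype. Assigned reads, recovered from the steps in the values, ranged from 14573583 to 19430386 in the ko libraries and from 12155108 to 14638673 in the het libraries. Markers of meiotic spermatocytes and of Sertoli cells were present in every library, and so were those of Leydig and peritubular cells.

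Of the 6 members whose difference had an unadjusted limma p under 0.05, Ift74, Wdr35, Bbs7 and Dync2h1 are shown here by the sequence around their starts, because ciliary genes are known targets of RFX transcription factors, which bind the X-box. Windows of 300 bases, from 250 before to 50 after the RefSeq start (GRCm38.p6), matched 28 of the 33 members. The X-box was searched as an unbroken palindrome, made of the arm GTTGCC, then AT, then GGCAAC, which reads the same on both strands, and up to 3 mismatches were allowed. The arm GTTGCC alone was searched exactly on both strands and may lie inside an X-box match. Bbs7 and Dync2h1 hold an X-box match, Wdr35 holds only the arm and Ift74 holds neither. Of the other two, Ift88 holds only the arm, and Dync2li1 had no window. In the windows below, written 5′ to 3′ on the gene's strand, capitals mark the X-box match or, where there was none, the arm.
Bbs7 (chr3:36613340-36613639, minus strand): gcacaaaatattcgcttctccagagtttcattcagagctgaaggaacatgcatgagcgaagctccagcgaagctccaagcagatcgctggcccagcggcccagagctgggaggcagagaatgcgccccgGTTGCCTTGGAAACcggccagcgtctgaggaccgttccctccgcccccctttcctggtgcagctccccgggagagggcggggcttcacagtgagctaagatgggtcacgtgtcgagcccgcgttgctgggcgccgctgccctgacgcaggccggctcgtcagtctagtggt
Dync2h1 (chr9:7177009-7177308, minus strand): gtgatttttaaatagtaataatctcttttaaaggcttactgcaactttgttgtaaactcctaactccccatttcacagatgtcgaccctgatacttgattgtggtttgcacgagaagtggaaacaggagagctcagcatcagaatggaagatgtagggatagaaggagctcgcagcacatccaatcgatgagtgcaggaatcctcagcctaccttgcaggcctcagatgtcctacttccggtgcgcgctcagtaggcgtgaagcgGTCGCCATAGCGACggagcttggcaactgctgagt
Wdr35 (chr12:8973751-8974050, plus strand): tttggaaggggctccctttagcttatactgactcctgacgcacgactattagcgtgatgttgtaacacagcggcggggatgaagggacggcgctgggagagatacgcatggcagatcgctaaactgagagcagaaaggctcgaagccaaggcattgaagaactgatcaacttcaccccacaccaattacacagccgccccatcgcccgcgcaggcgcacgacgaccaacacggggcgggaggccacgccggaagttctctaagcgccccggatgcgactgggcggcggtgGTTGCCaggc
Ift74 (chr4:94614241-94614540, plus strand): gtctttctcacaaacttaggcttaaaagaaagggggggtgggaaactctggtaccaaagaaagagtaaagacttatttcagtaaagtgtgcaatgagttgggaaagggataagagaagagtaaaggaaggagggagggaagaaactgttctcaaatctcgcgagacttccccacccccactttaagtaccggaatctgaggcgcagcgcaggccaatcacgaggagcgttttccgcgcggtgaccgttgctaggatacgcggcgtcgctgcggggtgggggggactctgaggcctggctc

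An X-box match was present in 7 of the 28 member windows (25.0%), against 3.37% of the 32851 windows in the table, and the arm in 12 (42.9%), against 12.5%. The 7 matches are shown in full and in capitals, to let their departures from the palindrome be compared.
Bbs1: GTTGCCAAGGCGAC
Bbs12: GTTGCTATAGCAGC
Bbs7: GTTGCCTTGGAAAC
Dync2h1: GTCGCCATAGCGAC
Ift140: GTTGTGACGGCAAC
Ift22: GTCGCCGTGGAAAC
Ift57: GTTGCCGTGGTGAC
The members with a match had log2 fold changes from -0.46 to -0.11 (median -0.23). The 21 windows without one belonged to members with changes from -0.64 to 0.15 (median -0.12). Both ko libraries lay below both het libraries for 4 of the 7 and for 10 of the 21 (19.7% of all genes tested). The difference between members with and without a match was not tested. Counted by gene, with a match in any of its windows, the share over all 27025 genes with a window was 3.84%. By that count 14 of 47 motile axoneme genes used for contrast (29.8%) held a match, and 10 of 17 transition zone genes (58.8%). Of the genes with a printed window, Bbs7, Dync2h1 and Wdr35 reach further upstream in GENCODE M21 than the RefSeq start. The Dync2h1 window, and part of the Bbs7 and Wdr35 windows before that start, thus lie inside the gene in that annotation. The windows of Kif17, Ift46 and Bbs2, which held no X-box match, also lie wholly inside the gene there. Windows around the GENCODE starts were not searched. A match describes letters in the window and does not show that a factor binds there.

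The transport genes were expressed in all 4 libraries at levels that spanned 23.7-fold between members. Ift20, an IFT-B subunit that also works at the Golgi, was highest with a mean of 48.3 FPKM over the 4 libraries, at 49.3 and 47.1 in ko and 52.3 and 44.5 in het. Kif3a, a kinesin-2 motor subunit, and Ift74, an IFT-B core subunit, came next with means of 27.1 and 26.3 FPKM. At the low end stood Kif17, a homodimeric kinesin-2, with a mean of 2.04 FPKM, Ttc30b with 2.45 and Bbs10 with 3.38. The median member averaged 7.66 FPKM, and all 33 members passed the filter on low genes, which asked for 1 FPKM or more on average across the libraries. Of the 32 neighbouring pairs in the order of levels, 30 had overlapping ranges over the libraries. The other two steps lay below Ift20 and below Ift74. Every member had at least 73 reads in each library, and the counting error is largest for Ttc30b, with 135 and 73 reads in ko and 112 and 88 in het.

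**Figure D1:**
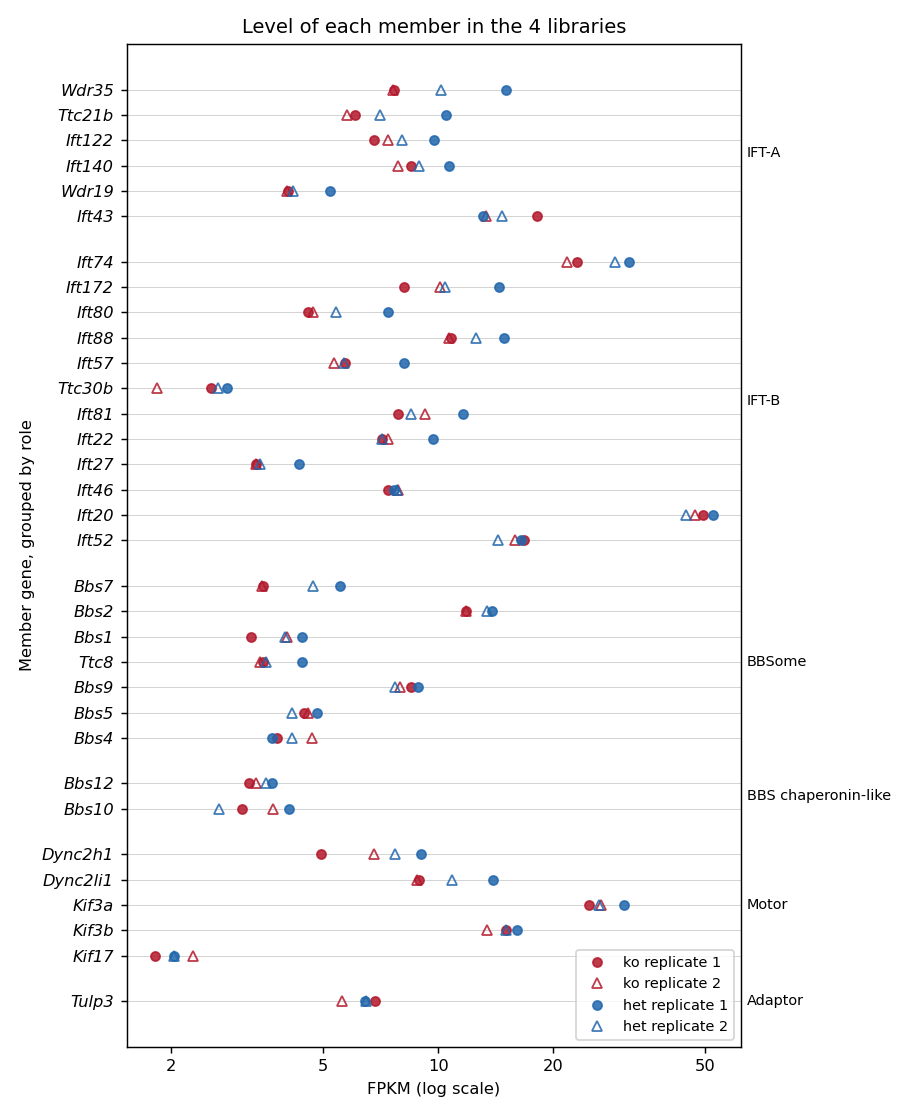
FPKM of each of the 33 members (log axis) in the 2 ko libraries (red) and the 2 het libraries (blue), with circles for replicate 1 and triangles for replicate 2, grouped by role. Symbols are filled for replicate 1, and the blue circle of het replicate 1 is the rightmost symbol for 27 of the 33 members.

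No member was called by limma as higher or lower in ko, yet most lay somewhat lower. Across all genes tested limma called 0.207% higher and 0.0112% lower. The log2 fold change was below 0 for 27 of the 33 members, against 47.9% of all genes tested, with a median of -0.17 against 0.01. At an unadjusted p under 0.05, 6 members were lower and 0 higher, where the background shares were 4.41% lower and 4.9% higher. The count of lower members was 3 without the filter on low genes, where 2.40% of all genes were lower at that p. By voom it was 11, where the share was 5.61%. The count also moved when single libraries were left out, which leaves 1 library in a group. The members' median log2 fold change was -0.17 without ko replicate 1 and -0.18 without ko replicate 2. It moved more without a het library, as given below. Both ko libraries lay below both het libraries for 18 of the 33 members (54.5%), against 19.7% of all genes, and above them for 0 members, against 22.1%. With voom on whole reads, a count-based alternative that called 0.774% of genes higher and 0.619% lower, 1 member was called, Wdr35, as lower. The members were chosen with earlier results of these data known, and they share the same 4 libraries, so these counts are a description and not a test of the list.

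The het libraries also differed from each other in most members. Het replicate 1 held the highest value of 27 members and exceeded het replicate 2 in 28, against 49.4% of all genes tested. The summed level of the members was 305 and 301 FPKM in the ko libraries and 377 and 320 FPKM in the het libraries. For 17 of the 33 members the ko-minus-het difference was smaller than the gap between the het libraries, as it was for 9554 of the 17905 genes tested. Without het replicate 1 the median log2 fold change of the members was -0.05, with 23 below 0, and without het replicate 2 it was -0.28, with 30 below 0. With whole testis RNA, fewer cells of a type and less RNA per cell cannot be told apart.

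IFT-A genes, which serve the return of trains and the entry of membrane proteins, had a median log2 fold change of -0.26 over 6 members. Both ko libraries lay below both het libraries for 5 of the 6, against 19.7% of all genes tested. The median was -0.14 when het replicate 1 was left out and -0.38 without het replicate 2. Wdr35 (GRCm38 chr12:8973892-9028847), an IFT-A subunit whose window is printed above, stood at 7.64 and 7.62 FPKM in ko and at 15.1 and 10.2 FPKM in het. The ko libraries were nearly equal and both lay below the het libraries, which differed from each other. Its ko-to-het ratio was 0.604 and its log2 fold change -0.64 (SE 0.19, 95% interval -1.13 to -0.14, limma adjusted p = 0.474). Voom on whole reads put it at -0.71 (SE 0.15) and called it lower (voom adjusted p = 0.0359, with 1079 and 808 reads in ko and 1605 and 900 in het). That call was lost without het replicate 1 (log2 fold change -0.42, voom adjusted p = 0.424) and kept without each of the other 3 libraries.

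Ttc21b, the IFT-A subunit also named IFT139, stood at 6.05 and 5.75 FPKM in ko and 10.5 and 7.06 FPKM in het (log2 fold change -0.48, SE 0.19, limma adjusted p = 0.537). Its change was -0.22 when het replicate 1 was left out and -0.73 without het replicate 2. Ift122, a core IFT-A subunit, stood at 6.78 and 7.37 FPKM in ko and 9.76 and 8.04 FPKM in het. Ift140, another core subunit, stood at 8.49 and 7.83 FPKM in ko and 10.6 and 8.93 FPKM in het. In all 3 the groups did not overlap and het replicate 1 was the highest library. Wdr19, the subunit also named IFT144, stood at 4.05 and 4.01 FPKM in ko and 5.21 and 4.17 FPKM in het, so the gap between the groups was small beside that within het. Ift43, a small peripheral subunit, stood apart from the other five, at 18.1 and 13.3 FPKM in ko and 13.1 and 14.7 FPKM in het (log2 fold change 0.15, SE 0.16). Its groups overlapped, ko replicate 1 being the highest library, and its change was -0.06 without that library.

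Among the members, 2 genes encode cytoplasmic dynein-2, the motor of the return journey, and both had an unadjusted limma p under 0.05. Dync2li1 (chr17:84626496-84655588), the light intermediate chain, stood at 8.89 and 8.77 FPKM in ko and 13.9 and 10.8 FPKM in het (ratio 0.714, log2 fold change -0.43, SE 0.14, limma adjusted p = 0.490). Dync2h1 (chr9:6928503-7184446), the heavy chain, stood at 4.93 and 6.78 FPKM in ko and 9.02 and 7.70 FPKM in het (ratio 0.700, log2 fold change -0.46, SE 0.17, limma adjusted p = 0.529). Neither overlapped between the groups. The change of Dync2li1 was -0.27 when het replicate 1 was left out and -0.60 without het replicate 2. For Dync2h1 the ko libraries were the less alike pair, and its change was -0.26 without ko replicate 1 and -0.66 without ko replicate 2. Further dynein-2 genes were in the list of other transport genes, and limma's unadjusted p was above 0.05 for each of them. Wdr60 and Wdr34, the intermediate chains, had changes of -0.23 and -0.13, both with overlapping groups. Among genes of light chains, many of which dynein-1 shares, changes were -0.54 for Dynlrb2, -0.13 for Tctex1d2, -0.05 for Dynll2, 0.04 for Dynlt3, 0.07 for Dynll1 and 0.15 for Dynlrb1. Dynlrb2 and Tctex1d2 lay lower in ko with no overlap, and Dynlrb1 lay higher in ko with no overlap. The change of Dynlrb2 (SE 0.25) rested on few reads, 18 and 7 in ko and 21 and 13 in het.

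The kinesin-2 members had differences nearer to 0. Kif3a stood at 24.7 and 26.6 FPKM in ko and 30.6 and 26.3 FPKM in het (log2 fold change -0.14, 95% interval -0.42 to 0.14). Kif3b, its heterodimer partner, stood at 15.02 and 13.4 FPKM in ko and 16.1 and 15.02 FPKM in het (log2 fold change -0.12, 95% interval -0.37 to 0.13). Kif17 stood at 1.81 and 2.28 FPKM in ko and 2.03 and 2.03 FPKM in het (log2 fold change 0.00, 95% interval -0.41 to 0.41). The groups overlapped for Kif3a and Kif17, and for Kif3b they were separated by less than the rounding shown. Kifap3, the accessory subunit that joins the Kif3 motor to cargo and no member, stood at 9.66 and 10.3 FPKM in ko and 14.2 and 12.1 FPKM in het, with no overlap (change -0.36, SE 0.11, limma adjusted p = 0.474, unadjusted p = 0.0224). Kif3c, a further kinesin-2 gene and no member, stood at 3.54 and 3.31 FPKM in ko and 3.72 and 4.15 FPKM in het. Its groups did not overlap (change -0.16, SE 0.12). The difference between the kinesin-2 and the dynein-2 genes was not tested.

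**Figure D2:**
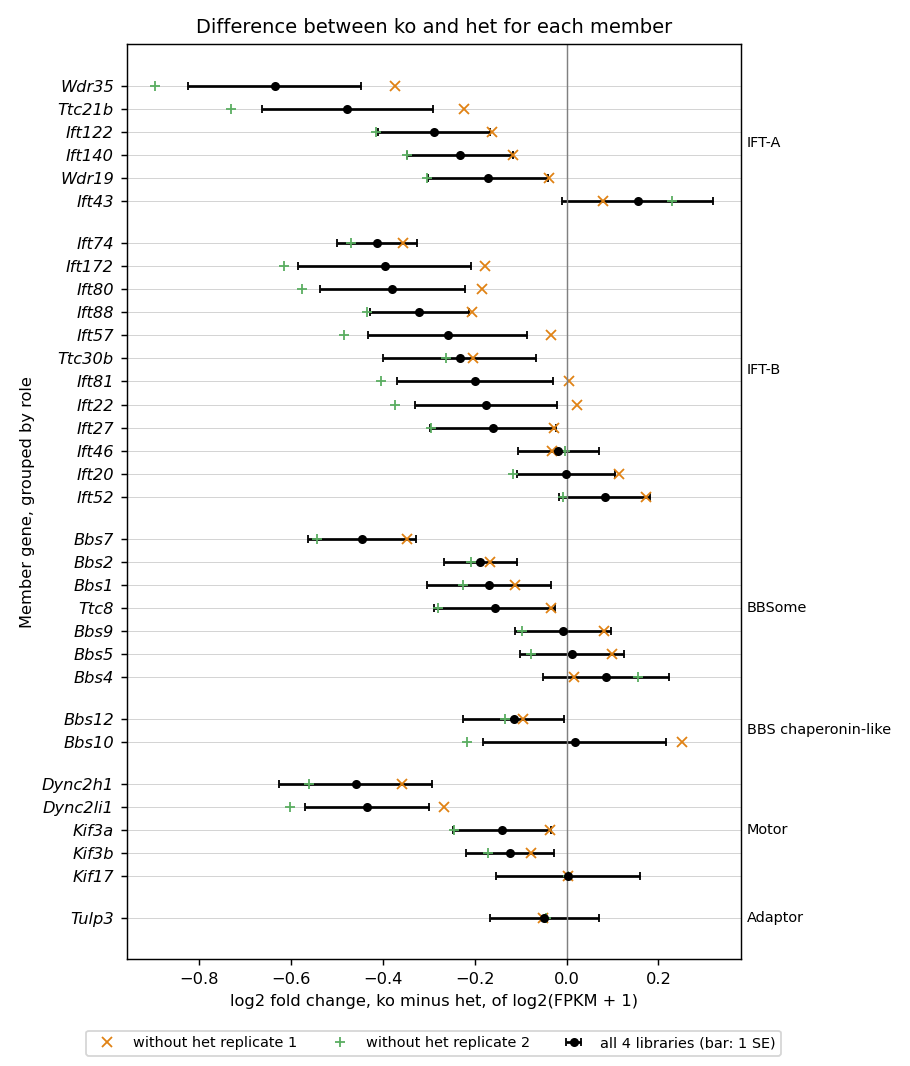
log2 fold change (ko minus het, log2(FPKM + 1)) of each member with 1 SE (black), and the same without het replicate 1 (orange crosses) or without het replicate 2 (green plus signs). Values without het replicate 1 lie nearer 0 for most members below 0, with Wdr35 at -0.37 and Ift74 at -0.36.

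IFT-B genes had a median log2 fold change of -0.22 over 12 members. Of these, 11 lay below 0 (47.9% of all genes tested) and 6 were lower in ko without overlap (19.7% of all genes tested). The median was -0.03 when het replicate 1 was left out and -0.39 without het replicate 2. Ift74 (chr4:94614491-94693229), which pairs with Ift81 to bind tubulin, had the smallest limma p of the members, while by voom the smallest was that of Wdr35. It stood at 23.1 and 21.8 FPKM in ko and 31.5 and 29.0 FPKM in het, with each pair of replicates close together and the groups well apart. The ratio was 0.742 and the log2 fold change -0.41 (SE 0.09, 95% interval -0.64 to -0.19, limma adjusted p = 0.368, unadjusted p = 0.00588). Leaving out single libraries moved its change between -0.47 and -0.36. Its partner Ift81 stood at 7.86 and 9.25 FPKM in ko and 11.6 and 8.49 FPKM in het, with overlap, and its change was -0.20 with all libraries and 0.01 without het replicate 1.

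Ift88 (chr14:57424062-57517936), the train subunit whose loss is widely used to remove cilia in mice, stood at 10.8 and 10.7 FPKM in ko and 14.8 and 12.5 FPKM in het (ratio 0.783, log2 fold change -0.32, SE 0.11, limma adjusted p = 0.509). Ift80 stood at 4.57 and 4.70 FPKM in ko and 7.40 and 5.40 FPKM in het, and Ift172, which in the alga Chlamydomonas is needed for turnaround at the ciliary tip, at 8.12 and 10.1 FPKM in ko and 14.4 and 10.4 FPKM in het. The groups did not overlap for these 3 genes, though for Ift172 the nearer libraries of the groups were close. Ift57 stood at 5.68 and 5.35 FPKM in ko and 8.12 and 5.66 FPKM in het. Ift22, a small GTPase-like subunit, stood at 7.10 and 7.38 FPKM in ko and 9.68 and 7.11 FPKM in het. Both rested on het replicate 1, with changes of -0.03 and 0.02 without it.

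Other IFT-B genes lay at like levels in ko and het. Ift20 had a log2 fold change of -0.00 (95% interval -0.28 to 0.28). Ift46, at 7.37 and 7.85 FPKM in ko and 7.63 and 7.80 FPKM in het, had a change of -0.02 (95% interval -0.25 to 0.21). Ift52, a scaffold of the train, stood at 16.8 and 15.9 FPKM in ko and 16.4 and 14.4 FPKM in het, a change of 0.08 (95% interval -0.18 to 0.34). Their groups overlapped. Ift27, a GTPase that links trains to the BBSome, stood at 3.34 and 3.33 FPKM in ko and 4.32 and 3.42 FPKM in het (change -0.16, and -0.03 without het replicate 1).

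Ttc30b, one of the mouse copies of IFT70, stood at 2.54 and 1.83 FPKM in ko and 2.80 and 2.65 FPKM in het (log2 fold change -0.23, SE 0.17). Its transcript was 93.7% identical to that of Ttc30a1 over 2081 aligned bases and 93.6% identical to that of Ttc30a2 over 2101, so the split of reads among the copies is uncertain. Ttc30a1 stood at 2.25 and 2.10 FPKM in ko and 4.83 and 3.12 FPKM in het (change -0.62, limma adjusted p = 0.504), and Ttc30a2 at 0.593 and 0.593 FPKM in ko and 2.44 and 0.711 FPKM in het. All 3 copies lay lower in both ko libraries. For Ttc30a2, with 28 and 21 reads in ko and 87 and 21 in het, the change was -0.10 without het replicate 1. Ttc30a2 averaged 0.593 FPKM in ko and passed the filter on low genes only through het.

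BBSome genes had a median log2 fold change of -0.16 over 7 members, 3 of them lower in ko without overlap (19.7% of all genes tested). The median was -0.05 without ko replicate 1, -0.03 without het replicate 1 and -0.21 without het replicate 2. Bbs7 (chr3:36573142-36613477), a subunit of the BBSome core whose window holds an X-box match, stood at 3.48 and 3.46 FPKM in ko and 5.51 and 4.69 FPKM in het. The ko libraries were almost the same and lay clearly below the het libraries. Its ratio was 0.680 and its change -0.45 (SE 0.12, limma adjusted p = 0.433, with 364 and 272 reads in ko and 435 and 307 in het), and it was -0.35 without het replicate 1. Bbs2, which pairs with Bbs7 in that core, stood at 11.8 and 11.8 FPKM in ko and 13.8 and 13.4 FPKM in het (change -0.19, SE 0.08, limma adjusted p = 0.562). For Bbs2 the replicates of each group were close and the groups did not overlap.

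Among the remaining BBSome subunits, Ttc8 and Bbs1 had ko-to-het ratios of 0.867 and 0.866, about that of Bbs2 (0.869). Ttc8, also named BBS8, stood at 3.47 and 3.41 FPKM in ko and 4.39 and 3.55 FPKM in het. Its groups did not overlap, but its change was -0.03 without het replicate 1. Bbs1 binds the small GTPase that recruits the coat. It stood at 3.23 and 4.01 FPKM in ko and 4.39 and 3.98 FPKM in het. The groups of Bbs1 overlapped, and its change was -0.05 without ko replicate 1. Bbs9, Bbs5 and Bbs4 had changes of -0.01, 0.01 and 0.09, each with overlapping groups. Bbs4 stood at 3.78 and 4.66 FPKM in ko and 3.67 and 4.14 FPKM in het. Of the chaperonin-like genes, Bbs12 stood at 3.19 and 3.32 FPKM in ko and 3.67 and 3.55 FPKM in het (change -0.11, SE 0.11) and Bbs10 at 3.07 and 3.69 FPKM in ko and 4.08 and 2.67 FPKM in het (change 0.02, SE 0.20). The groups overlapped for Bbs10 and not for Bbs12. Tulp3, the adaptor that hands receptors to IFT-A, stood at 6.84 and 5.61 FPKM in ko and 6.43 and 6.46 FPKM in het (change -0.05, 95% interval -0.36 to 0.26).

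Reads of overlapping genes cannot be told apart here, since the strand setting of the counting is not given in the sources used here. Exons of 5 members overlap those of another gene in GENCODE M21. The overlap covers 7.86% of the exon length of Ift57 (an antisense gene), 3.21% of Bbs4 (Adpgk), 1.62% of Kif17 (Sh2d5), 1.45% of Ift88 (Ift88os) and 1.31% of Bbs12 (Cetn4 and Gm43439).

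Other transport genes, listed apart from the members, were also mostly lower. Of 27 tested, limma and voom each called 0, 4 were lower and 0 higher at an unadjusted p under 0.05, and the median log2 fold change was -0.15 (-0.06 without het replicate 1). Over all genes tested, 4.41% were lower and 4.9% higher at that p. Both ko libraries lay below both het libraries for 13 (48.1%, against 19.7% of all genes tested). They lay above them for 2 (7.41%, against 22.1%). Ttc30a2, 1 of the 13, passed the filter only through het. Lztfl1, a regulator of BBSome entry, stood at 5.09 and 4.996 FPKM in ko and 7.17 and 6.38 FPKM in het (change -0.36, limma adjusted p = 0.456). Its groups did not overlap.

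Structural genes of primary cilia were similar. The 20 transition zone genes, which form the gate at the ciliary base, had a median of -0.14 (-0.04 without het replicate 1). At an unadjusted p under 0.05, 3 were lower and 0 higher, where the shares over all genes tested were 4.41% and 4.9%. Cep290, a linker of that gate, stood at 6.56 and 7.41 FPKM in ko and 10.1 and 8.81 FPKM in het (limma adjusted p = 0.471). The 13 basal body genes had a median of -0.16 (-0.09 without het replicate 1), with 2 lower and 0 higher at that p. Pcm1, the scaffold of centriolar satellites, stood at 24.01 and 24.1 FPKM in ko and 34.2 and 29.7 FPKM in het (limma adjusted p = 0.413). The 14 Hedgehog genes, whose signal passes through primary cilia, had a median of -0.05 with 0 genes at that p. Among them the target Gli1 stood at 6.41 and 7.16 FPKM in ko and 8.25 and 7.43 FPKM in het, and the Hedgehog-binding antagonist Hhip at 1.07 and 1.15 FPKM in ko and 1.53 and 1.65 FPKM in het. Limma and voom each called 0 genes of these 3 lists.

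Genes of the motile axoneme, the contrast for the transport genes, had larger differences. Of 59 found, 36 passed the filter, and 5 of these averaged under 1 FPKM in ko and passed it only through het. The log2 fold change was below 0 for 35 of the 36, against 47.9% of all genes tested. The median was -0.56 against -0.17 for the transport members. It was -0.35 without het replicate 1, where the members' median was -0.05, and -0.35 over all 59 genes without the filter. Limma called 0. Its unadjusted p was under 0.05 for 16 genes, all lower in ko (4.41% of all genes tested), and voom called 12 as lower (0.619% of all genes). Of these, 4 of the 16 and 4 of the 12 averaged under 1 FPKM in ko and passed the filter only through het. Zmynd10, a dynein arm assembly factor, stood at 1.91 and 2.71 FPKM in ko and 13.7 and 7.26 FPKM in het (change -1.75, SE 0.31, limma adjusted p = 0.286). The difference between the lists was not tested. The lists also differed in how far the het libraries stood apart, with a median het replicate 1 minus het replicate 2 of 0.45 for axoneme genes and 0.21 for the members (log2).

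**Figure D3:**
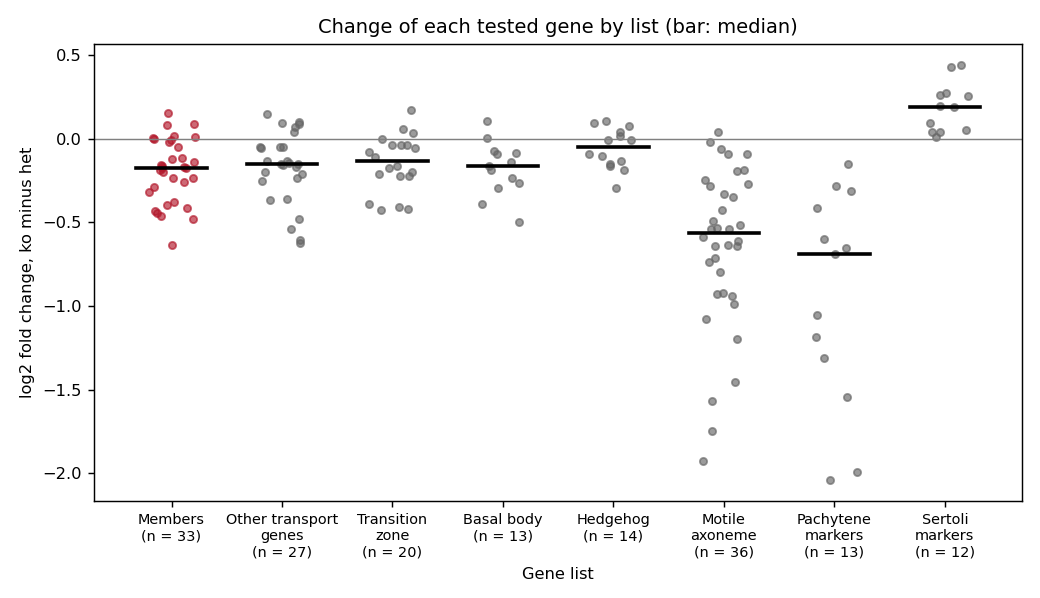
log2 fold change (ko minus het) of every tested gene in the member list (red) and in 7 other lists (grey), with a bar at each median. Members lie between -0.64 and 0.15, motile axoneme genes reach -1.93 and pachytene markers -2.04, while Sertoli markers lie above 0.

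A list of 12 transcription factors held Rfx1, Rfx2, Rfx3, Rfx4, Rfx5, Rfx7, Foxj1, Mybl1, Tcfl5, Sox30, Crem and Taf7l. Mybl1 and Tcfl5 were also counted among the pachytene markers, so the list is not specific to ciliary genes. Of the list, 11 genes passed the filter and limma called 0. The median log2 fold change was -0.20. It was -0.08 without het replicate 1, -0.11 without ko replicate 1, -0.32 without ko replicate 2 and -0.49 without het replicate 2. Rfx4, an X-box binding factor, stood at 0.349 and 0.305 FPKM in ko and 2.08 and 1.32 FPKM in het . Rfx4 passed the filter only through het, where it is higher, so its limma p and its voom call are not read as results. No other gene of the list had an unadjusted limma p under 0.05 or was called by voom. Rfx4 still counts in the list's median. Rfx2, the RFX factor required for mouse spermatid development, stood at 2.94 and 4.64 FPKM in ko and 6.77 and 4.67 FPKM in het (change -0.49, limma adjusted p = 0.615). Its groups did not overlap, but ko replicate 2 and het replicate 2 were almost equal.

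Markers of some cell types also differed between the libraries. The 16 pachytene spermatocyte markers summed to 499 and 530 FPKM in ko and 922 and 602 FPKM in het. Of these, 12 of the 13 that passed the filter lay lower in both ko libraries (19.7% of all genes tested). Their median log2 fold change was -0.69, with -0.32 without het replicate 1 and -1.06 without het replicate 2. Sertoli markers, 12 of 12 with a change above 0, summed to 2151 and 1771 FPKM in ko and 1412 and 1699 FPKM in het. Macrophage markers, 9 in number, summed to 209.5 and 174 FPKM in ko and 91.0 and 99.5 FPKM in het, with C1qb called higher by limma. The 12 spermatogonial markers summed to 358 and 313 FPKM in ko and 272 and 303 FPKM in het. Round spermatid markers summed to 205 and 189 FPKM in ko and 189 and 147 FPKM in het, with Prm1 at 15.5 and 0.481 FPKM in ko and 0.479 and 0 FPKM in het. Of these 12 markers, 6 passed the filter, and their median level was 9.03 and 0.633 FPKM in ko and 0.716 and 0.538 FPKM in het. The sums thus hide that ko replicate 1 stood apart from the other libraries. Leydig markers summed to 242 and 192 FPKM in ko and 189 and 183 FPKM in het, and peritubular markers to 309 and 279 FPKM in ko and 317 and 304 FPKM in het. Het replicate 1 was thus highest for pachytene markers and lowest for Sertoli markers, as it was highest for most members. Markers of multiciliated efferent duct cells, which also use IFT, summed to 11.2 and 13.6 FPKM in ko and 11.02 and 12.5 FPKM in het, with Foxj1 at 0.922 and 0.732 FPKM in ko and 1.07 and 0.627 FPKM in het, and 7 of 9 below the filter. No marker of these lists was listed at 0 in all 4 libraries. The part of cell composition in the members' differences was not tested.

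**Figure D4:**
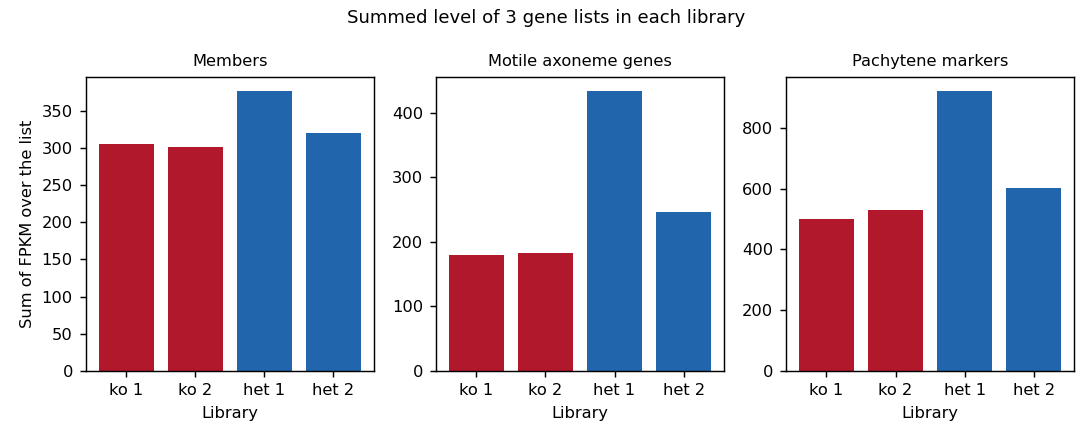
Summed FPKM of the 33 members, of 59 motile axoneme genes and of 16 pachytene markers in each library, ko in red and het in blue. In all 3 panels both ko libraries lie below both het libraries, and het replicate 1 is the highest bar.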

How the data were processed

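Poly(A) RNA was measured in 4 libraries, 2 ko and 2 het. Per the file headers, the authors deposited a table of gene symbols and FPKM for each library. The submitters' processing notes name GRCm38, edgeR, featureCounts, STAR 2.6.1a and CASAVA 1.9 with no role or setting, and the annotation release is not given in the sources used here. Symbols were matched to GENCODE M21, and 53177 of 55401 rows (96.0%) matched. FPKM times exon length moved in steps of 1 read: at least 99.1% of values of up to 20 reads in each library, and all 132 member values, were whole within 0.02 reads.

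Genes averaging 1 FPKM or more were fitted as log2(FPKM + 1) by genotype in limma 3.58.1 (R 4.3.3) with an intensity trend. The code was tested on simulated data. Members, lists, tests and alternatives were chosen with earlier results of these data known. Values in every library were due for members with an unadjusted p under 0.05, with the 5 largest changes, with the 3 highest and 3 lowest levels or called by voom, and for up to 4 called or 2 other genes of each further list. Most other members were added. Alternatives were voom on whole reads, another pseudocount (0.1), no filter or a minimum of 5 FPKM, the replicate number as a block, 2 other scalings and each library left out. Same-numbered libraries did not deviate together (correlation -0.03 across genes), so the numbers were not taken as pairs. The Ttc30 copies were compared by transcript, not by protein as planned.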

Additional observations from a re-analysis of the deposited data

How the results depend on the processing

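Limma called 0 members with all libraries and in each alternative on FPKM, and voom on whole reads called 1. Leaving libraries out of voom, an alternative added after seeing the data, gave 0 to 9 member calls. It gave 0 without het replicate 1, 1 without ko replicate 1, 3 without ko replicate 2 and 9 without het replicate 2, all lower in ko. Over all genes limma called 39, with 0 without the filter, 0 in each fit that left out a library, 15 with the replicate number as a block and 243 by voom. For voom with a library left out, the share of all genes called is not given here, so the member counts of those fits have no baseline. Each such fit also leaves 1 library in a group. The calls without het replicate 2 rest on het replicate 1 as the only het library. The replicate block changed no member's call and left the members' median at -0.17. That median ranged from -0.28 to -0.052 when single libraries were left out, and the value nearest 0 came without het replicate 1. With other settings it ranged from -0.22 to -0.17.

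The sign was kept by 21 of the 33 members, 14 of them in all 11 alternatives and 7 in 10, since these averaged under 5 FPKM and were not tested with that minimum. The other 12 lay near 0 or rested on 1 library, and their log2 fold changes spanned 0 when single libraries were left out, for Ift46 (-0.058 to 0.022), Ift43 (-0.056 to 0.37), Ift20 (-0.12 to 0.11), Tulp3 (-0.17 to 0.075), Bbs4 (-0.036 to 0.21), Kif17 (-0.11 to 0.11), Bbs10 (-0.22 to 0.25), Bbs9 (-0.10 to 0.082), Ift22 (-0.37 to 0.022), Ift81 (-0.40 to 0.0052), Ift52 (-0.0075 to 0.17) and Bbs5 (-0.077 to 0.10). Kif17 was also -0.0051 with median-of-ratios scaling and -0.020 by voom, and Bbs10 was -0.011 by voom, with all libraries. With 2 libraries a group, a change of the size seen here is read against a spread estimated from few samples, and low members such as Ttc30b and Kif17 are also limited by read counts.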
